A study of Homo sapiens with 10 samples.

Results

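S100 proteins are small calcium sensors, and 10 genes of the family were examined in RNA-seq of 4 prostate cancer cell lines: S100A2, S100A4, S100A6, S100A8, S100A9, S100A10, S100A11, S100A14, S100A16 and S100P. They were found by gene symbol, and each matched 1 of the 23170 gene entries. The 10 were chosen by name with their FPKM values in the 4 lines already known, so those values describe the genes and were not tested. The tables list 11 other genes of the family, which are counted separately.

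All samples were PC3, an established human line grown from a prostate cancer metastasis to bone. PC3-Epi (2 samples) was the epithelial control. PC3-EMT14 (3 samples) was a mesenchymal population isolated from PC3-Epi after co-culture with macrophages that had been derived from blood monocytes with IL4. The lines PC3-EMT14-OVOL1 (3 samples) and, with 2 samples, PC3-EMT14-OVOL2 were PC3-EMT14 cells transduced with a lentivirus to overexpress OVOL1 or OVOL2, transcription factors that are low in the mesenchymal cells. Each is a single derived population. The study's text names the PC3-EMT14 cells of this comparison as the parental cells. No sample is labelled as an empty-vector control, so overexpression and the transduction itself cannot be told apart in the OVOL lines. The study also used different constructs for OVOL1 and OVOL2, so their lines differ in that as well.

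An S100 protein carries a pair of EF-hand loops that bind calcium, and most work as dimers that open a face for a partner protein when calcium rises. Inside the cell they bind annexins, myosin and cytoskeletal proteins, and some are secreted and act on receptors such as AGER (RAGE) and TLR4. Most of the genes sit in a cluster on chromosome 1 beside the genes of the cornified skin barrier, and several are made mainly by epithelia, whereas S100A4 is known as a marker of mesenchymal and motile cells.

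Each line had 1 pooled FPKM value in each comparison that included it, with no value per sample. FPKM are fragments per kilobase of transcript, scaled here by upper-quartile normalization in place of the total number of mapped fragments. The test statistics, p-values and q-values that the tables hold for the study's own comparisons were not used, and without values per sample no SD, test or interval was computed here. The depth is unknown, and a difference below says how far the pooled values of 2 lines lay apart, not whether this exceeded the spread between samples. Differences are log2 of the ratio of (FPKM + 0.1), and a gene was called higher or lower where it was past 2-fold. As the samples were bulk RNA, a change in the number of cells that make a transcript and a change in the amount per cell cannot be told apart. The 2 OVOL lines and PC3-Epi were all compared with the same PC3-EMT14 samples, so the comparisons share them.

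OVOL1, OVOL2, CDH1, ZEB1 and VIM served as the check of the lines. OVOL1 was at 0.0238 FPKM in PC3-EMT14 and 11.3 in the OVOL1 line, and OVOL2 was at 0.370 in PC3-EMT14 and 831 in the OVOL2 line, far over the 9.91 FPKM of PC3-Epi. CDH1, which encodes E-cadherin, was at 0.981 FPKM in PC3-EMT14, 16.2 in the OVOL1 line, 39.2 in the OVOL2 line and 50.6 in PC3-Epi. ZEB1, a repressor of epithelial genes, was at 7.43, 4.25, 1.77 and 0.130 FPKM in the same order. VIM, which encodes the mesenchymal marker vimentin, was at 265, 183, 76.9 and 42.5 FPKM. Neither ZEB1 nor VIM passed 2-fold with OVOL1. Genes on the marker lists were called only where their mean over the 2 lines was at least 1 FPKM. Of 8 epithelial markers, 4 were called higher in each OVOL line (2 were under that mean in each, and 1 had no estimate with OVOL2) and 8 in PC3-Epi. Of 7 mesenchymal markers, 1 was called lower in the OVOL1 line, 5 in the OVOL2 line and 3 in PC3-Epi, with 1 under that mean in each. A squamous and basal list of 8 genes had 1, 3 and 3 called higher in the 3 comparisons, with 6, 5 and 5 under that mean. Under it, GRHL2 was past 2-fold higher in both OVOL lines, TRIM29 with OVOL1, SPRR1B with OVOL2, and TP63 with OVOL2 and in PC3-Epi.

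Apart from S100A8, which was near 0 throughout, the genes fell into 3 patterns, and the sequence just before the start of transcription is printed here for 4 of them. S100A14, S100A9 and S100P are shown because they were far higher in all of the OVOL and PC3-Epi lines than in PC3-EMT14, and S100A16 because it is the direct neighbour of S100A14 on the same strand and did not pass 2-fold in any comparison. The sequences are RefSeq promoters of GRCh38.p14, 250 bases ending at the base before the start, written 5′ to 3′ on the strand of the gene. Capitals mark the E-box CAGGTG, the letters that ZEB1 is known to bind, read on either strand (CACCTG on the other).
S100A14, chr1:153616326-153616575, minus strand: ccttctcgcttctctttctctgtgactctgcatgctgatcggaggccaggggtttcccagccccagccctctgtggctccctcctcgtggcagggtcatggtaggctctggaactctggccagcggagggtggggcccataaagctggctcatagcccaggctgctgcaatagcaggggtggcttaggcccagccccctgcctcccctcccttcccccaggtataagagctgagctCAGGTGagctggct
S100A9, chr1:153357604-153357853, plus strand: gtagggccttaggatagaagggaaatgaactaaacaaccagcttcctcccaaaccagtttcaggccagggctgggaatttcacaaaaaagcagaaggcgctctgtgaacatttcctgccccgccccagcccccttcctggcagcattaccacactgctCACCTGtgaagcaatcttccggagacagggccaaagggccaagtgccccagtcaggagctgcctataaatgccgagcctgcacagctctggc
S100P, chr4:6693628-6693877, plus strand: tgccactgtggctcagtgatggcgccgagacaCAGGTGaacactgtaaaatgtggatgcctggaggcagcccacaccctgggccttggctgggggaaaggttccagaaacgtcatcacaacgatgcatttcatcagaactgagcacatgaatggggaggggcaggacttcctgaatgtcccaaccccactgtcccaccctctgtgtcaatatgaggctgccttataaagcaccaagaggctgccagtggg
S100A16, chr1:153613138-153613387, minus strand: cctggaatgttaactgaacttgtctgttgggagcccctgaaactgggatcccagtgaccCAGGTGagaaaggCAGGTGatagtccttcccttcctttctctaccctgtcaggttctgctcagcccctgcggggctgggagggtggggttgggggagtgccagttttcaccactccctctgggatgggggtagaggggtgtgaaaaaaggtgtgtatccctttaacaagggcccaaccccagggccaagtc

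The first base of the E-box lay 14 bases before the start of S100A14, on the strand of the gene, 92 bases before S100A9 on the other strand and 218 bases before S100P. S100A16 held 2, at 191 and 178 bases before its first listed start. In windows of 300 bases (250 before and 50 after each start, both strands), 7 of the 10 genes held the E-box at 1 start site or more, against 24.1% of the 27305 genes in the table. The 7 were S100A2, S100A4, S100A8, S100A9, S100A14, S100A16 and S100P, and S100A6, S100A10 and S100A11 held none. The 7 with the motif include genes of every pattern described here, S100A16 among them. Those without it were all in the pattern of S100A16. A link between motif and pattern was not tested. The 14 start sites of the 10 genes are not separate cases, since the 3 windows of S100A8 overlap and share 1 E-box. The OVOL2 consensus that the study searched for was in 0 of the 14 windows, against 0.980% of 35116 promoters. A match is a match of letters and says nothing of binding in these cells.

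S100A14 had the widest range of the 10 genes on the log2 scale. It encodes an S100 protein made mainly by epithelia. It was at 1.30 FPKM in PC3-EMT14, 49.9 in the OVOL1 line, 51.4 in the OVOL2 line and 372 in PC3-Epi. PC3-EMT14 was the low line and PC3-Epi the high one, with the 2 OVOL lines level with each other between them. On the log2 scale this was 5.16 above PC3-EMT14 in the OVOL1 line (35.8-fold), 5.22 in the OVOL2 line (37.2-fold) and 8.03 in PC3-Epi (261-fold). When OVOL2 and OVOL1 were compared directly the difference was 0.06. Set against PC3-Epi through PC3-EMT14, the OVOL1 line was 2.87 and the OVOL2 line 2.81 lower on the log2 scale, about 7.30-fold and 7.02-fold. The difference ranked 43 of 11919 entries from the highest with OVOL1, 32 of 11993 with OVOL2 and 32 of 12045 in PC3-Epi.

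S100A9 was the member that separated the OVOL lines. Its product is best known as a subunit of calprotectin, the heterodimer with S100A8 that neutrophils and inflamed epithelia release. S100A9 was at 1.72 FPKM in PC3-EMT14, 130 in the OVOL1 line, 29.1 in the OVOL2 line and 304 in PC3-Epi. All 3 other lines were thus far above PC3-EMT14, and the OVOL1 line was the nearer to PC3-Epi. The log2 difference against PC3-EMT14 was 6.16 in the OVOL1 line (71.5-fold), 4.02 in the OVOL2 line (16.2-fold) and 7.36 in PC3-Epi (164-fold). In the direct comparison S100A9 was at 129 FPKM with OVOL1 and 29.1 with OVOL2, a log2 difference of -2.14 (4.41-fold lower with OVOL2). Here the order of the OVOL lines was opposite to that of CDH1, which was lower with OVOL1 than with OVOL2.

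S100A8, the partner of S100A9 in calprotectin, lies 29.0 kb from it and was near 0 in every line. Its level was 0.0263 FPKM in PC3-EMT14, 0.355 in the OVOL1 line, 0.0421 in the OVOL2 line and 1.08 in PC3-Epi. The order of the 4 lines was that of S100A9, at levels 366-fold (OVOL1 line) and 281-fold (PC3-Epi) below it. The log2 differences of 1.85 in the OVOL1 line, 0.17 in the OVOL2 line and 3.22 in PC3-Epi rest on these low values. With 1 FPKM added in place of 0.1, the OVOL1 difference was 0.40.

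Myeloid cells make both S100A8 and S100A9, and macrophages were used to derive PC3-EMT14, so a list of 15 macrophage genes is summarized. Its summed level was 0.420 FPKM in PC3-EMT14, 0.571 in the OVOL1 line, 0.610 in the OVOL2 line and 0.438 in PC3-Epi, and the highest of the 15 in any line was at 0.214 FPKM. Between 3 and 5 of the 15 were at 0 in each line, C1QA and C1QB among them in all.

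S100P, the member on chromosome 4, was the only one of the genes past 2-fold in both OVOL lines with higher levels there than in PC3-Epi. It encodes a protein first found in placenta and common in carcinomas. It was at 21.0 FPKM in PC3-EMT14, 143 in the OVOL1 line, 188 in the OVOL2 line and 117 in PC3-Epi. PC3-EMT14 was again the low line, but the other 3 lay within 2-fold of each other. The log2 difference against PC3-EMT14 was 2.76 in the OVOL1 line (6.76-fold), 3.17 in the OVOL2 line (9.00-fold) and 2.44 in PC3-Epi (5.44-fold). Through PC3-EMT14, the OVOL2 line was 0.73 and the OVOL1 line 0.31 above PC3-Epi on the log2 scale, and in the direct comparison OVOL2 was 0.41 above OVOL1.

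**Figure D1:**
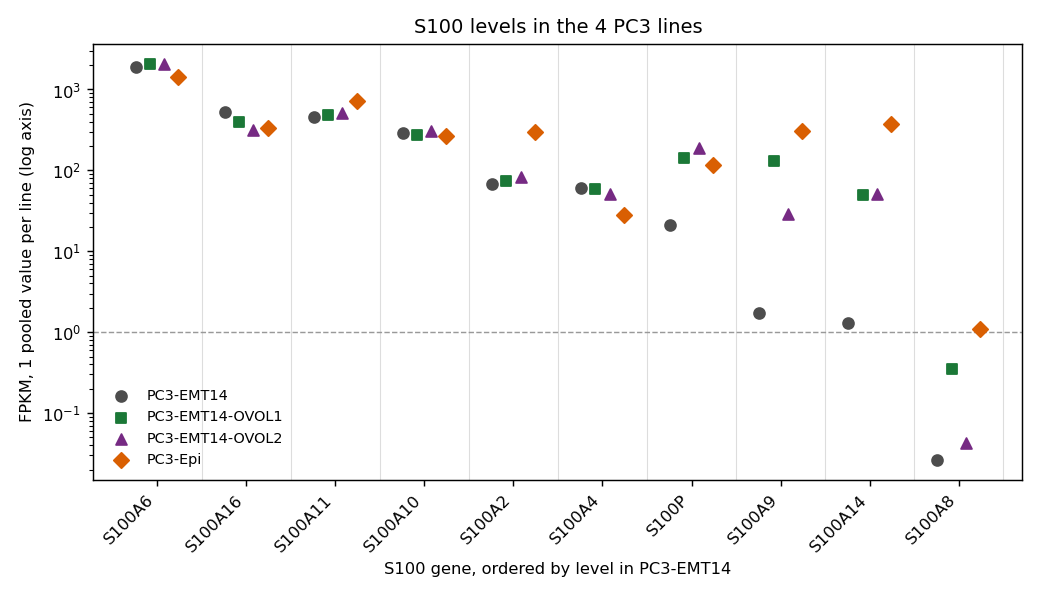
Pooled FPKM of the 10 S100 genes (log axis) in the 4 lines, 1 point per line, ordered by the level in PC3-EMT14, taken from the tables of the comparisons with PC3-EMT14. S100A14 and S100A9 run from under 2 FPKM in PC3-EMT14 to 372 and 304 in PC3-Epi, S100A8 stays near or below 1 FPKM (dashed line), and S100A6 is at 1428 FPKM or more in every line.

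In a second pattern the OVOL lines stayed with PC3-EMT14 and only PC3-Epi was past 2-fold. S100A2, an S100 protein of basal and squamous epithelia that binds p53, was at 68.3 FPKM in PC3-EMT14, 74.0 in the OVOL1 line, 81.9 in the OVOL2 line and 294 in PC3-Epi. The log2 difference was 0.12 in the OVOL1 line, 0.28 in the OVOL2 line and 2.07 in PC3-Epi (4.21-fold). Through PC3-EMT14 the OVOL1 line remained 1.96 and the OVOL2 line 1.80 below PC3-Epi on the log2 scale.

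S100A4, also called metastasin and a binder of non-muscle myosin, was the only 1 of the 10 called lower in a comparison with PC3-EMT14. It was at 60.6 FPKM in PC3-EMT14, 59.2 in the OVOL1 line, 51.0 in the OVOL2 line and 27.9 in PC3-Epi. PC3-Epi was the low line, and the log2 difference there was -1.15 (2.21-fold lower). With OVOL1 it was -0.03 and with OVOL2 -0.23. S100A4 was also the only 1 of the 10 with more than 1 isoform in the tables. The main isoform, TCONS_00002957, held 95.4% of the FPKM of the gene in PC3-EMT14 and 97.7% in PC3-Epi, and went from 59.1 to 27.3 FPKM between them. The minor one, TCONS_00002956, was at 2.76 FPKM in PC3-EMT14, 1.41 in the OVOL1 line, 0.709 in the OVOL2 line and 0.652 in PC3-Epi, below its PC3-EMT14 level in all 3 lines, with log2 differences of -0.93, -1.81 and -1.96. In GENCODE v44lift37 the S100A4 gene overlaps S100A3 on the same strand for 1930 bases, so reads there could belong to either gene. The loci listed with the FPKM values of S100A4 and S100A3 do not overlap.

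The third pattern was 4 abundant genes that did not pass 2-fold anywhere: S100A6, S100A10, S100A11 and S100A16. S100A6 (calcyclin, a partner of annexins and of CACYBP) was the highest of the 10 in every line, at 1880 FPKM in PC3-EMT14, 2055 in the OVOL1 line, 2077 in the OVOL2 line and 1428 in PC3-Epi. Its log2 differences were 0.13, 0.16 and -0.43, above PC3-EMT14 in the OVOL lines and below it in PC3-Epi. In FPKM, a scale per length, S100A6 alone made up 56.9% of the sum over the 10 genes in PC3-EMT14 and 36.97% in PC3-Epi. It ranked 9 from the top of all gene entries in PC3-EMT14 and 22 in PC3-Epi.

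S100A10, which lacks working calcium loops and joins annexin A2 at the membrane, was at 289 FPKM in PC3-EMT14, 277 in the OVOL1 line, 306 in the OVOL2 line and 264 in PC3-Epi. The 4 lines lay close together, with log2 differences of -0.06, 0.10 and -0.16. S100A11, a partner of annexin A1, was at 462, 488, 515 and 719 FPKM in the same order, so PC3-Epi was the high line at 0.61. RefSeq names 10 pseudogenes of S100A11, and reads that also match those copies are uncertain. S100A16, which lies 1.22 kb from S100A14, was at 522 FPKM in PC3-EMT14, 399 in the OVOL1 line, 317 in the OVOL2 line and 335 in PC3-Epi. It was below PC3-EMT14 in all 3 lines, at -0.39, -0.70 and -0.67, while its neighbour S100A14 was above it in all 3.

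**Figure D2:**
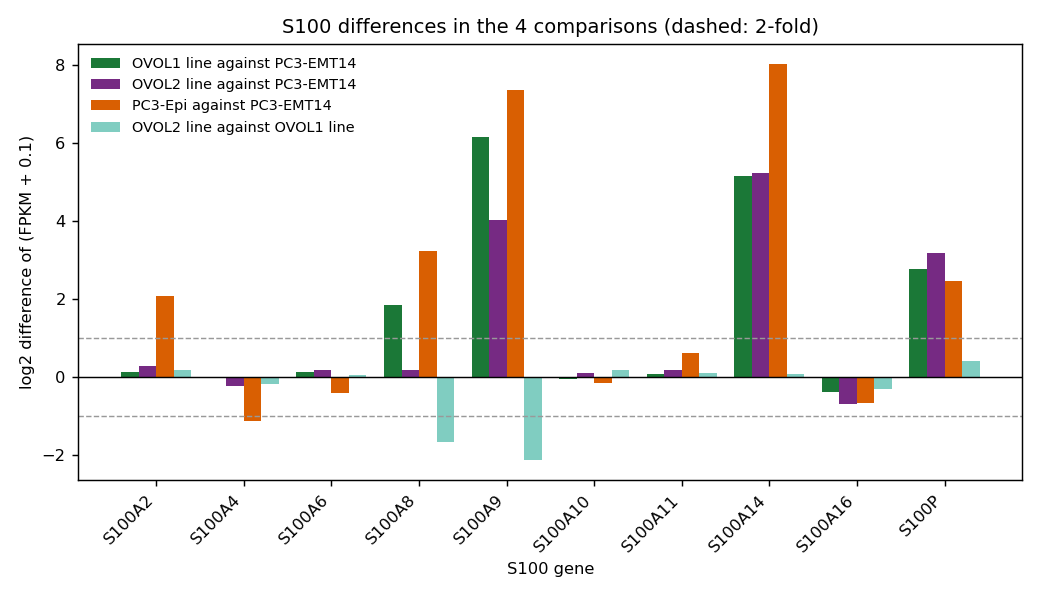
Log2 difference of (FPKM + 0.1) for each of the 10 S100 genes in the 4 comparisons, with dashed lines at 2-fold. S100A9, S100A14 and S100P stand above the upper line in all 3 comparisons with PC3-EMT14, and S100A9 is at -2.14 when OVOL2 is set against OVOL1.

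The counts of called genes are given beside those over all entries with a mean of at least 1 FPKM in the 2 lines compared. S100A8 was below that mean in each comparison, so 9 of the 10 genes are in that set. With OVOL1, 3 of these 9 were higher (S100A9, S100A14 and S100P) and 0 were lower, where 1.97% of the 11919 entries were higher and 1.25% lower. With OVOL2 the same 3 were higher and 0 lower, where 3.81% of 11993 entries were higher and 2.46% lower. In PC3-Epi, 4 were higher (S100A2 in addition) and 1 lower, where 6.53% of 12045 entries were higher and 7.11% lower. Between OVOL2 and OVOL1, 1 was lower (S100A9) and 0 higher, where 1.05% of 11944 entries were lower and 1.52% higher. Since the genes were chosen with these values known, nothing is read from the counts.

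S100A8 was a further call at its low level in 3 of the comparisons, higher with OVOL1 and in PC3-Epi and lower with OVOL2 than with OVOL1. The median log2 difference over all 10 genes, S100A8 included, was 0.12 in the OVOL1 line, 0.17 in the OVOL2 line and 1.34 in PC3-Epi. Without S100A8 the middle gene was S100A2 at 0.12 with OVOL1, and S100A11 at 0.17 with OVOL2 and 0.61 in PC3-Epi. Over all entries with a mean of at least 1 FPKM, a set that leaves S100A8 out, the median was 0.00, -0.04 and -0.01.

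**Figure D3:**
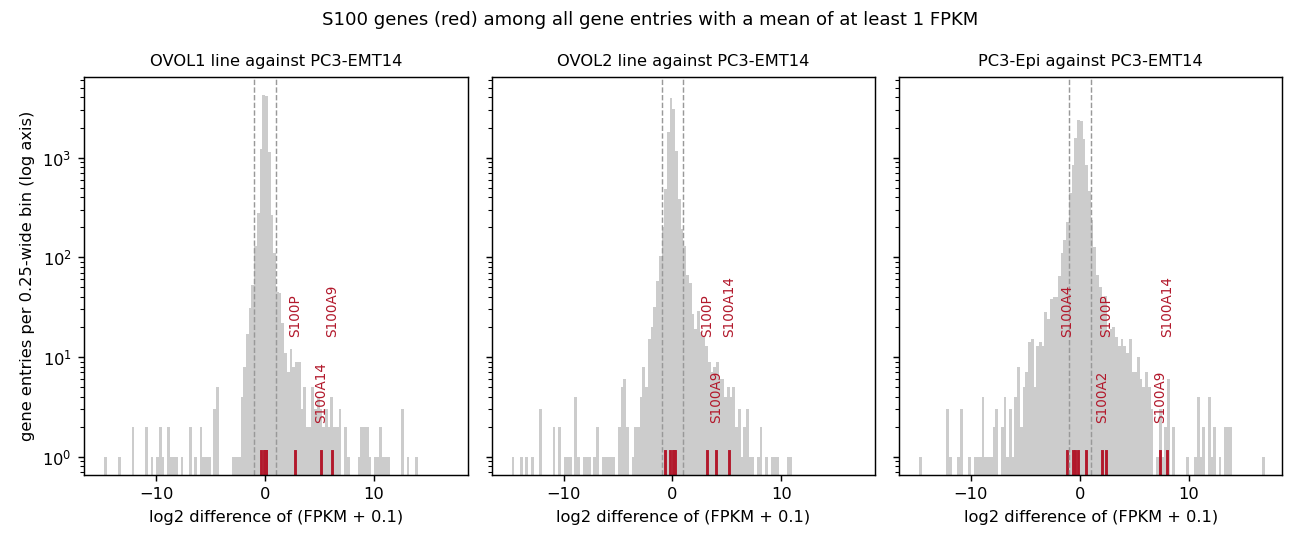
Number of gene entries (log axis) per 0.25-wide bin of the log2 difference from PC3-EMT14, for entries with a mean of at least 1 FPKM, with the 9 S100 genes of that set as red ticks and those past 2-fold (dashed lines) named. S100A14 and S100A9 lie in the thin upper tail at 4.02 or more in every panel, and the unnamed S100 genes lie between -0.70 and 0.61.

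The positions are those of hg19. The 9 genes on chromosome 1 fell between 151955386 and 153617979, a span of 1663 kb. Its end is that of the locus listed for S100A13, past S100A14, the last of the 9. S100A10 (chr1:151955386-151966714) and S100A11 (chr1:152004982-152009511) lie at the start of it, on the minus strand. S100A9 (chr1:153330330-153333503, plus strand) and S100A8 (chr1:153362508-153363664, minus strand) follow after 1321 kb. S100A6 (chr1:153507076-153508717), S100A4 (chr1:153516095-153518282), S100A2 (chr1:153533585-153538306), S100A16 (chr1:153579367-153585514) and S100A14 (chr1:153586732-153588790) are close together on the minus strand. S100P is at chr4:6695566-6698897 on the plus strand.

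Along the span, genes that were called lay beside genes that were not. S100A9 and S100A14 were higher in the OVOL lines, while S100A6, S100A4, S100A2 and S100A16, which lie between them, were not called there. S100A5, also between them, was called higher at a low level, with log2 differences of 1.20 in the OVOL1 line and 1.12 in the OVOL2 line, and S100A8 passed 2-fold in the OVOL1 line at the levels given before. Of 47 other entries in the span that are not S100 genes, 46 were below 1 FPKM in every line, and the other one, C1orf77, was not past 2-fold. A list of 17 S100-fused and skin barrier genes, among them filaggrin and the SPRR genes, summed to 0.843 FPKM in PC3-EMT14, 0.761 in the OVOL1 line, 0.894 in the OVOL2 line and 0.102 in PC3-Epi. These sums hold differences in both directions. FLG was the highest of the list in PC3-EMT14, at 0.785 FPKM. It was at 0.399 in the OVOL1 line, 0.328 in the OVOL2 line and 0.0467 in PC3-Epi. SPRR1A, SPRR1B, SPRR2A and LCE3D were at 0 in PC3-EMT14 and between 0.0456 and 0.148 FPKM in the OVOL lines.

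**Figure D4:**
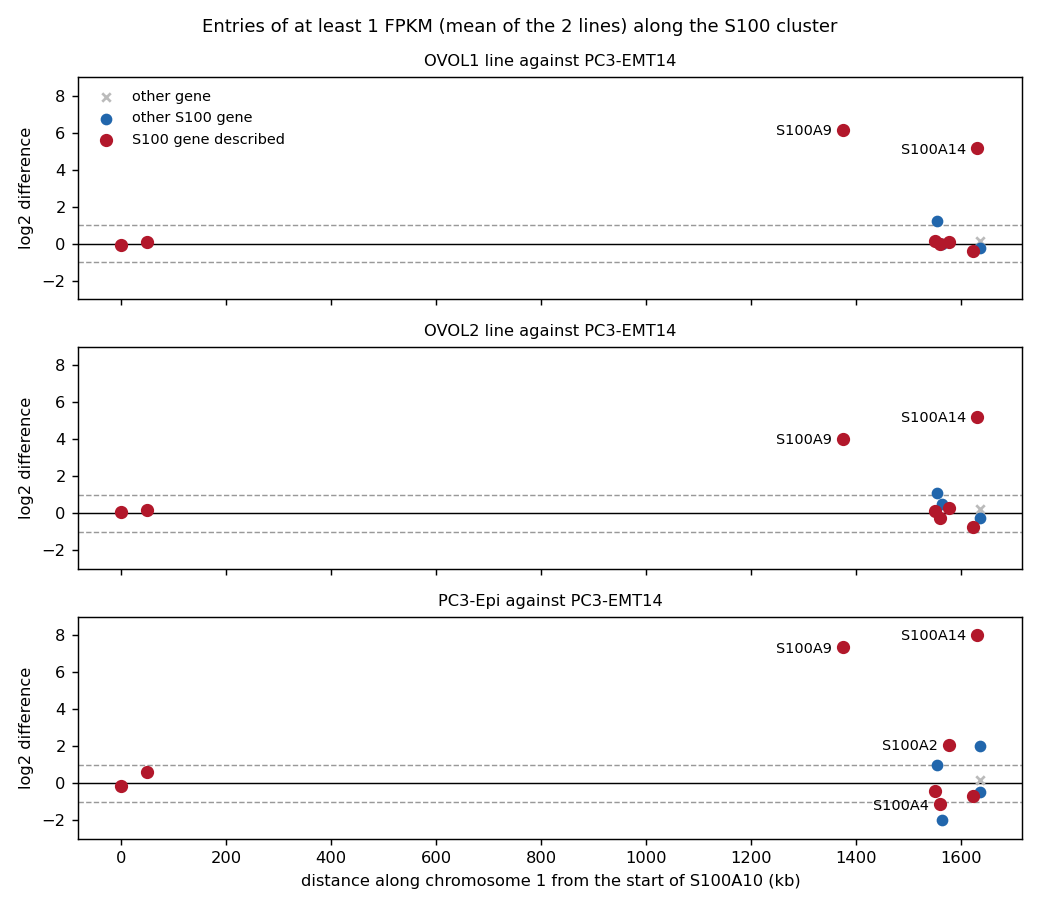
Log2 difference from PC3-EMT14 against the distance along chromosome 1 from the start of S100A10 (kb), for entries with a mean of at least 1 FPKM in the 2 lines compared. Red points are the S100 genes described, blue points other S100 genes and grey crosses other genes, with dashed lines at 2-fold. S100A14 stands apart from the S100 genes drawn close to it in each panel. S100A8 and S100A12, the S100 genes nearest to S100A9, were under that mean and are not drawn. Their log2 differences were 1.85 and 0.97 with OVOL1, 0.17 and 0.05 with OVOL2, and 3.22 and 1.54 in PC3-Epi.

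Of the 11 other genes of the family, 5 reached 1 FPKM in any line. S100A13, the most abundant, was at 228 FPKM in PC3-EMT14, 196 in the OVOL1 line, 187 in the OVOL2 line and 167 in PC3-Epi. S100A3 was at 10.4, 10.3, 14.5 and 2.64 FPKM, so that, like S100A4 beside it, it was past 2-fold lower in PC3-Epi alone (-1.97). S100A5 was at 1.04, 2.54, 2.36 and 2.22 FPKM, S100A1 at 0.482, 0.290, 0.399 and 2.34, and S100G at 1.43, 1.03, 0.668 and 0.207. S100A1 and S100A13 share a listed start with C1orf77, and reads of these genes may not be fully separated. The other 6 (S100A7, S100A7A, S100A12, S100B, S100Z and S100A7L2) were at 0.224 FPKM or below in every line.

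A list of 29 known partners of S100 proteins was counted in the same way. With OVOL1, 0 were past 2-fold in either direction and PLAU had no estimate. The OVOL2 line had 2 partners higher and 3 lower, and PC3-Epi had 2 higher and 5 lower. Partners under the mean of 1 FPKM, which were not called, numbered 2 in each OVOL line and 1 in PC3-Epi. Of all entries with that mean, 1.97% were higher and 1.25% lower in the OVOL1 line. These shares were 3.81% and 2.46% for the OVOL2 line, and 6.53% and 7.11% for PC3-Epi. Whether the partners differed from all entries was not tested. The 12 intracellular targets, among them MYH9, IQGAP1 and CACYBP, had 0 called in the OVOL lines. In PC3-Epi 1 of them was called, MYL9, a myosin light chain, from 10.6 to 24.0 FPKM.

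Among the annexin and membrane partners, ANXA2, the partner of S100A10, did not pass 2-fold, and its values are given although the rule did not name it. It was at 613 FPKM in PC3-EMT14, 616 in the OVOL1 line, 722 in the OVOL2 line and 374 for PC3-Epi. ANXA5, which encodes annexin A5, was at 431 FPKM in PC3-EMT14 and 213 with OVOL2, and at 445 and 199 in the comparison with PC3-Epi. ANXA6 went from 96.4 to 38.9 FPKM in PC3-Epi, and DYSF, which encodes the membrane repair protein dysferlin, from 5.59 to 12.9 with OVOL2. Annexin A2 with S100A10 helps to activate plasminogen at the cell surface, and PLAT, the tissue activator, was the partner farthest from its level in PC3-EMT14. It was at 325 FPKM in both PC3-EMT14 and the OVOL1 line. With OVOL2 it went from 322 to 135, and in PC3-Epi from 332 to 9.99, a log2 difference of -5.04. PLAU, the urokinase activator, was at 954 FPKM in PC3-EMT14 and 2016 with OVOL2, and its receptor PLAUR went from 63.8 to 27.3 in PC3-Epi. The receptors AGER and TLR4 were low, and are named here after their values were seen. TLR4 was at 2.51 FPKM in PC3-EMT14 and 1.06 with OVOL2, and at 2.59 and 0.247 in the comparison with PC3-Epi. AGER went from 0.640 to 1.39 FPKM in PC3-Epi.

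Entries with the most similar pattern were ranked by the root mean square distance over the 3 log2 differences from PC3-EMT14, among 11674 entries with a mean of at least 1 FPKM in each of the 3 comparisons. This was done for the genes past 4-fold in any of them. For S100A14 the nearest were LCN2 (distance 0.67), ST14 (0.79) and S100A9 (0.98). LCN2, which encodes lipocalin 2, was at 0.515 FPKM in PC3-EMT14, 31.6 in the OVOL1 line, 33.4 in the OVOL2 line and 90.1 in PC3-Epi. For S100A9 they were S100A14 (0.98), LCN2 (1.06) and NPNT (1.18), all farther off than the nearest of S100A14. With OVOL1 and OVOL2 the differences of these 3 lay close, at 5.16 and 5.22, 5.69 and 5.78, and 4.43 and 4.72. Those of S100A9 were 6.16 and 4.02.

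For S100P the nearest was GDF15 (0.15), which encodes a secreted stress cytokine and was at 8.80 FPKM in PC3-EMT14, 66.5 in the OVOL1 line, 68.5 in the OVOL2 line and 46.9 in PC3-Epi, followed by SCARNA22 (0.28) and KRT16 (0.33). For S100A2 they were IGSF9 (0.06), HNMT (0.07) and MCM10 (0.09), and for the low S100A8 they were PTGFRN (0.35), SNORD89 (0.41) and CALB2 (0.52). The 3 differences share PC3-EMT14, so a small distance is a likeness of 4 pooled levels and no more.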

How the data were processed

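RNA-seq was performed on 10 samples of PC3 cells in 4 groups, which follow the sample labels. TopHat was used by the authors to align the paired reads to hg19 transcripts of UCSC, and Cuffdiff was run with upper-quartile normalization, normalization to compatible hits, and correction for sequence bias and for reads that map to several places. For each of 4 comparisons 1 table of genes and 1 of isoforms was deposited (8 in all, 23170 gene and 37557 isoform entries). The deposited FPKM values come from Cuffdiff, as 1 value for a line in a comparison, over its pooled samples. The tables also hold the fold changes, test statistics, p-values and q-values of the study's own comparisons, which were not used. The number of unused columns with values per sample was 0.

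Differences were computed as log2 of the ratio of (FPKM + 0.1) within a table, with pandas 2.3.3 and numpy 2.4.6 in Python 3.11.15, and checked on simulated data. The background was all entries with a mean of at least 1 FPKM in the 2 lines, without the 60 to 92 entries per table that Cuffdiff marked as failed or too deep. No test or SD could be computed from the pooled values, no sample could be left out, and the depth is unknown. PC3-EMT14 values in the OVOL2 and PC3-Epi tables were 0.990 and 1.02 times (median) those in the OVOL1 table, so levels set across tables carry that scale. Locus starts were written 1-based, and strands were taken from GENCODE v44lift37. Promoters came from RefSeq (GRCh38.p14), where all 10 genes matched.

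The text names all 10 genes. It also names other S100 genes of at least 1 FPKM, partners past 2-fold and at 10 FPKM or more in either line, and the 3 most similar entries for each gene past 4-fold. The genes and the lists were chosen with earlier results of these data known. The alternatives were other pseudocounts, thresholds and filters, isoform sums and centring on the median.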

Additional observations from a re-analysis of the deposited data

How the results depend on the processing

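No paired analysis was possible because the tables hold 1 pooled value per line and no value per sample, and for the same reason no sample could be left out. The counts here are over all 10 genes, S100A8 included: 4 with OVOL1, 3 with OVOL2, 6 in PC3-Epi and 2 for OVOL2 against OVOL1. Of the 28 recomputed counts of S100 genes past the threshold, 25 stayed within 1.5 times these. The other 3 were all of OVOL2 against OVOL1. There the count went from 2 to 1 with a pseudocount of 1 FPKM, with a 4-fold threshold, and with S100 genes of a mean of at least 1 FPKM only. The last of these is the count over 9 genes given in the Results. S100A8 is the gene lost in each, and S100A9 is the one that stays. Of 160 recomputed log2 differences of single S100 genes, 158 kept their direction and their side of 2-fold under no pseudocount, a pseudocount of 1 FPKM, isoform sums and centring. The other 2 were S100A8 with 1 FPKM added, at 0.40 with OVOL1 and -0.38 for OVOL2 against OVOL1. Among all entries, the share past 2-fold with OVOL1 was 1.99% in place of 3.22% when a mean of at least 5 FPKM was required. Pooled values without counts limit every statement here: no error of a difference was computed here, since the deposited test results were not used, and low levels such as those of S100A8 cannot be set against a floor.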

Other observations

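S100A13, the gene after S100A14 on chromosome 1, differed more between its isoforms than as a whole. The gene was at 226 FPKM in PC3-EMT14 and 187 with OVOL2. Its isoform TCONS_00002964 was at 159 FPKM in PC3-EMT14 and 45.3 with OVOL2, whereas TCONS_00002962 was at 35.2 and 124. In the OVOL1 comparison the same 2 isoforms were at 161 and 154 FPKM, and at 35.6 and 16.4. In PC3-Epi they were at 154 and 1.80 FPKM. Each is 1 pooled estimate of how reads divide between transcripts that share sequence, and the listed start is shared with S100A1 and C1orf77.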
